A study of Mus musculus with 18 samples.

Results

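The ileum, the last stretch of the small intestine, was compared between pregnant and virgin female mice by RNA sequencing of epithelial cells sorted by flow cytometry. Membership came from the mating status in the sample labels: 12 of the 18 libraries of the series, 6 from pregnant and 6 from virgin mice. The other 6 libraries, from pseudopregnant mice, entered the same model and are used below only to set pregnancy beside a state without embryos. All animals were fed RM3 chow while breeding and RM1 chow for maintenance and experiment. Strain, age, day of pregnancy, hour of collection, sort markers and batch are not in the labels, and neither is whether the libraries of a group come from separate animals. The p-values below therefore measure only the spread between these samples, which may be technical. The virgin group is the control throughout, and groups are given as the lowest, highest and median of 6 libraries in CPM, the counts of a gene per M (mega) of counts, scaled for library composition.

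The ileal epithelium renews itself from stem cells at the crypt base. Their progeny divide, move up the villus and mature into absorptive enterocytes, or into the secretory goblet, Paneth, enteroendocrine and tuft cells. Enterocytes of the ileum recover bile acids and vitamin B12 and finish the uptake of sugars, peptides, fat and minerals. In rodents the intestine is known to enlarge in pregnancy and lactation, when the demand for nutrients rises, and the series title names this growth as its subject.

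Epithelial markers were high and those of other cells low in every library. The 11 epithelial marker genes together held 19273 to 26655 CPM in pregnant and 20230 to 28820 CPM in virgin libraries, and the pan-epithelial gene Epcam stood at 1888 to 3234 CPM (median 2699) and 2096 to 2988 CPM (median 2509.5). The ileal marker Fabp6, which carries bile acids inside the enterocyte, stood at 2274 to 10411 CPM (median 5509.7) in pregnant and 2787 to 14268 CPM (median 4865) in virgin libraries, and the hindgut gene Hoxd13 was at 0 in all 12. The 19 leukocyte markers summed to 20.4 to 48.4 CPM in pregnant and 19.7 to 44.5 CPM in virgin libraries. The 15 stromal and endothelial markers summed to 11.0 to 21.4 and 12.1 to 17.3 CPM, with Lum at 0. Libraries held 24.9 to 37.3 M (mega) counts, so that 1 CPM is 24.9 to 37.3 reads before the scaling. Total counts (31.3 ± 4.75 M against 30.9 ± 1.79 M, SD, n = 6 each, two-sided exact permutation p = 0.857) and the mitochondrial share (6.11% ± 1.73 against 6.27% ± 1.24, exact permutation p = 0.853) differed by less than the spread within the groups.

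Libraries differed in the balance of mature villus and dividing crypt transcripts. A villus-minus-crypt score was formed as the mean log2 deviation of 21 brush border genes minus that of 34 proliferation genes. Its lowest, median and highest values were -0.40, 0.11 and 1.46 in pregnant libraries and -0.72, -0.52 and 1.12 in virgin libraries. Pregnant replicates 3 (1.46), 4 (0.86) and 6 (0.43) and virgin replicate 3 (1.12) stood above 0, and the other 8 libraries lay below it, so the groups overlapped. This score contains the 2 lists it is made of. Medians with the score as a covariate are given below for most lists. In bulk RNA, fewer cells of a type and less RNA per cell cannot be told apart.

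No gene passed adjustment over all genes in edgeR's model with 1 mean per group. Of 14675 genes tested with edgeR's quasi-likelihood model, 0 (0%) had a Benjamini-Hochberg adjusted p under 0.05, and the smallest adjusted p was 0.488. It was 0.0523 when only the 12 libraries compared were fitted. At an unadjusted p under 0.05 stood 540 genes (3.68%), of which 296 (2.02%) were higher and 244 (1.66%) lower in pregnant libraries. If no gene differed, a share of about 0.05 would fall under this threshold, so the 540 genes are no excess. The genes described below are therefore a ranking and not a set of established changes. Limma-voom also called 0 genes, with 528 at an unadjusted p under 0.05. DESeq2 called 5 genes, with 627 at an unadjusted p under 0.05, and these were Gm42427 (adjusted p = 0.00175), Bco1 (0.0241), Mbl2 (0.0376), Cyp3a44 (0.0376) and Slc31a1 (0.0472), all higher in pregnant libraries. The unadjusted count depended on single libraries. It was 223 and 265 after leaving out pregnant replicates 4 and 3, and 1382 and 813 after leaving out pregnant replicates 1 and 5. For virgin libraries it was 331, 315 and 1953 after leaving out replicates 1, 2 and 3.

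The size of the differences that these libraries leave possible can be read from the intervals. For 12618 genes (86.0%) the 95% interval of the log2 fold change, unadjusted, lay within 1 of 0. Among the 6358 genes with a mean of at least 20 CPM this held for 95.8%. The median distance from the estimate to the end of its interval was 0.42. In 1 gene the interval lay wholly above 1 (Cyp3a44) and in 1 wholly below -1 (Defa-ps4). Of the 540 genes at the unadjusted threshold, 50 had an absolute log2 fold change of at least 1, 34 of them higher and 16 lower. Among the genes with a mean of at least 20 CPM, libraries of the pregnant group spread about as widely as those of the virgin group. The SD of log2 CPM over 6 libraries had a median over these genes of 0.27 and 0.25. It was the larger in the pregnant group for 55.3% of these genes.

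**Figure D1:**
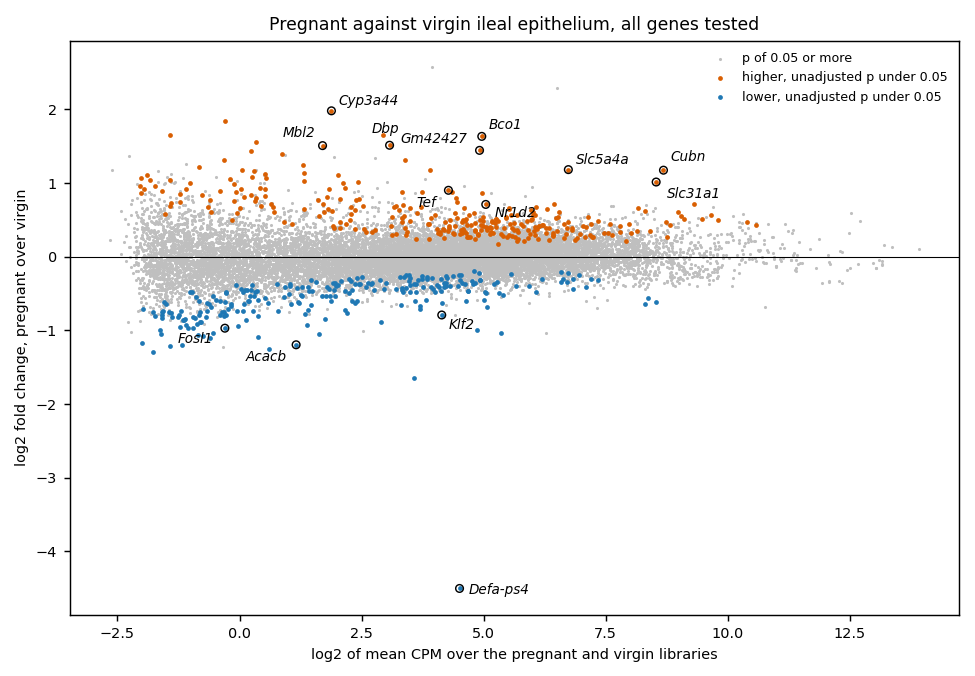
Log2 fold change of pregnant over virgin libraries (vertical axis) against the log2 of the mean CPM of the 12 libraries (horizontal axis), 1 point for each of the 14675 genes tested. Orange and blue points are the 296 higher and 244 lower genes at an unadjusted p under 0.05, ringed genes are among those described in the text, and Defa-ps4 stands far below all others at -4.50 through a single virgin library.

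Bco1 and Gm42427 had the smallest unadjusted p-values of all genes, and their values did not overlap between the groups. Bco1 encodes the enzyme that cleaves beta-carotene into retinal, the first step from dietary carotene to vitamin A (ENSMUSG00000031845, chromosome 8, 117095854 to 117133720, plus strand, GRCm38, protein coding). It stood at 20.6 to 69.5 CPM (median 49.4) in pregnant and 8.4 to 19 CPM (median 16.4) in virgin libraries. All 6 pregnant libraries lay above every virgin library, with replicates 3, 4 and 6 at 69.5, 62.5 and 68.5 CPM and replicates 2 and 5 closest to the virgin range at 20.6 and 25 CPM. The log2 fold change was 1.63 (SE 0.35, 95% interval 0.89 to 2.37, unadjusted p = 0.000183), with an adjusted p of 0.891 in edgeR. Those 3 high libraries also had the highest villus-minus-crypt scores of the pregnant group, and with the score in the model the log2 fold change was 1.12. Virgin replicate 3, which has a score of 1.12, held 18 CPM, inside the range of the other virgin libraries.

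Gm42427 is annotated only as a transcript that remains to be experimentally tested (ENSMUSG00000105263, chromosome 5, 44137980 to 44143271, plus strand), in the interval between Prom1 and Tapt1. It stood at 24.5 to 53.8 CPM (median 46.7) in pregnant and 10.8 to 20.4 CPM (median 17) in virgin libraries, again without overlap. The highest pregnant libraries were replicates 5, 2 and 4, and the lowest was replicate 1 at 24.5 CPM, against 20.4 CPM in the highest virgin library. The log2 fold change was 1.44 (SE 0.27, 95% interval 0.88 to 2.01, unadjusted p = 3.33e-05), and its adjusted p of 0.488 was the smallest of all genes in this edgeR model. It was 1.52 with the villus-minus-crypt score in the model and 1.35 to 1.57 when 1 library was left out.

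The groups did not overlap in 10 of 14675 genes (0.0681%), 6 higher (0.0409%) and 4 lower (0.0273%) in pregnant libraries. Random division of the same libraries into groups of 6 would on average separate a larger share, so these are no excess either. Besides Bco1 and Gm42427, the higher ones were Tef, Cachd1, Cpvl and Ccser1. Cachd1, a membrane protein with cache domains, stood at 20.7 to 33.6 CPM (median 24.4) against 13.7 to 20.6 CPM (median 16.8), so the margin between the lowest pregnant and the highest virgin library was narrow, and its log2 fold change was 0.59 (SE 0.17, 95% interval 0.24 to 0.95, unadjusted p = 0.00229). Cpvl, a serine carboxypeptidase, was nearly silent at 0.367 to 0.704 CPM (median 0.479) against 0.0615 to 0.356 CPM (median 0.262), at a log2 fold change of 1.04 (95% interval 0.21 to 1.86). Ccser1, a coiled-coil protein, differed little but tightly, at 14.8 to 17.6 CPM (median 15.8) against 11.9 to 14.7 CPM (median 13.7) and a log2 fold change of 0.24 (95% interval 0.04 to 0.43). The 4 lower ones were Snrnp35, a protein of the minor spliceosome, at -0.36 (SE 0.14), Ppp2r3c, a regulatory subunit of protein phosphatase 2A, at -0.21 (SE 0.12), Aifm3 at -0.45 (SE 0.18) and the processed pseudogene Gm6158 at -0.27 (SE 0.16) on the log2 scale. For Ppp2r3c and Gm6158 the unadjusted p in edgeR was 0.0825 and 0.111 all the same. In each of the 10 genes except Bco1 and Gm42427, the margin between the groups was under 1 CPM. The unscaled counts of Cpvl overlapped, with 8 reads in pregnant replicate 1 and 10 in virgin replicates 3 and 6.

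Among named protein-coding genes of at least 2 CPM, the smallest p-values on the higher side belonged to genes of very different function. Mbl2, a mannose-binding lectin of innate defence (ENSMUSG00000024863, chromosome 19, 30232942 to 30239687, plus strand), stood at 2.54 to 8.5 CPM (median 4.69) in pregnant and 1.08 to 2.74 CPM (median 1.45) in virgin libraries, with 5 of 6 pregnant libraries above the virgin range. Its log2 fold change was 1.51 (SE 0.34, 95% interval 0.80 to 2.21, unadjusted p = 0.000247). Cyp3a44, a cytochrome P450 of the 3A family (ENSMUSG00000054417, chromosome 5, 145773983 to 145805874, minus strand), stood at 2.01 to 12 CPM (median 5.41) against 0.377 to 2.63 CPM (median 1.63), with 4 of 6 above the virgin range, at 1.98 (SE 0.46, 95% interval 1.03 to 2.93, unadjusted p = 0.000342). The Cyp3a genes lie in a cluster of close paralogs whose reads may be shared in the counts. Flvcr2, a membrane transporter known to carry choline, stood at 7.61 to 27.8 CPM (median 10.9) against 2.74 to 11.9 CPM (median 4.88), at 1.31 (SE 0.36), and was highest in pregnant replicates 3 and 4. The zinc finger gene Zfp385b was at 0.93 (SE 0.23), with 5 of 6 pregnant libraries above the virgin range.

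A pair of forkhead transcription factors was on the same side. Foxo3, which acts downstream of insulin signalling, was held at 48.4 to 63.7 CPM (median 56.1) in pregnant libraries, a narrow range, and at 27.8 to 61.9 CPM (median 33.9) in virgin libraries. Virgin replicate 3 alone, at 61.9 CPM, reached into the pregnant range, and the other 5 virgin libraries lay below every pregnant one. The log2 fold change was 0.56 (SE 0.16, 95% interval 0.23 to 0.90, unadjusted p = 0.00245), and 0.76 without virgin replicate 3. Foxo6 was at 6.95 to 26.2 CPM (median 16) against 6.67 to 11.6 CPM (median 9.55), a log2 fold change of 0.87 (SE 0.25), with pregnant replicate 2 inside the virgin range.

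On the lower side the virgin libraries were the variable ones. Klf2, a Kruppel-like transcription factor that responds quickly to stimuli (ENSMUSG00000055148, chromosome 8, 72319033 to 72321656, plus strand), stood at 10.5 to 15.9 CPM (median 12.7) in pregnant and 13.5 to 40.4 CPM (median 20.1) in virgin libraries. All 6 pregnant libraries lay below the virgin median and 4 of them below every virgin library. The log2 fold change was -0.79 (SE 0.21, 95% interval -1.23 to -0.35, unadjusted p = 0.00125), and -0.54 without virgin replicate 2, the highest. Acacb, the acetyl-CoA carboxylase whose product restrains fatty acid entry into mitochondria, stood at 0.677 to 2.23 CPM (median 1.29) against 1.38 to 6.09 CPM (median 2.72), at -1.2 (SE 0.38, 95% interval -2 to -0.39, unadjusted p = 0.00571). It was -0.89 without virgin replicate 4. Bin1, an adaptor that shapes membranes, was at -0.72 (SE 0.21), and Id4, an inhibitor of basic helix-loop-helix factors, at -0.92 (SE 0.29). Both had all 6 pregnant libraries below the virgin median.

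The rest of the 12 genes of smallest p on that side were Defa-ps4, Nr4a1, described below with the early response genes, and 6 others with 6 of 6 pregnant libraries below the virgin median. The 6 were Hs3st1, a heparan sulfate sulfotransferase (-0.60), the small nucleolar RNA host gene Snhg3 (-0.60), F3 or tissue factor (-0.63), the matricellular gene Ccn1 (-0.59), Snapc1 of the small nuclear RNA activating complex (-0.43) and Tnfrsf12a, the TWEAK receptor (-0.53). Hs3st1, Snhg3 and F3 were highest in virgin replicate 2, and were at -0.70 to -0.45, -0.70 to -0.46 and -0.75 to -0.46 when 1 library was left out. Defa-ps4, a pseudogene of the alpha-defensins that Paneth cells make, stood at 0.647 to 5.64 CPM (median 1.08) in pregnant libraries and at 0.763 to 249.7 CPM (median 2.78) in virgin libraries, because virgin replicate 6 alone held 249.7 CPM. It was below the virgin median in 5 of 6 pregnant libraries. Its log2 fold change of -4.5 (SE 1.57) was -0.17 without that library, and reads of the many near-identical defensin copies cannot be assigned with certainty.

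**Figure D2:**
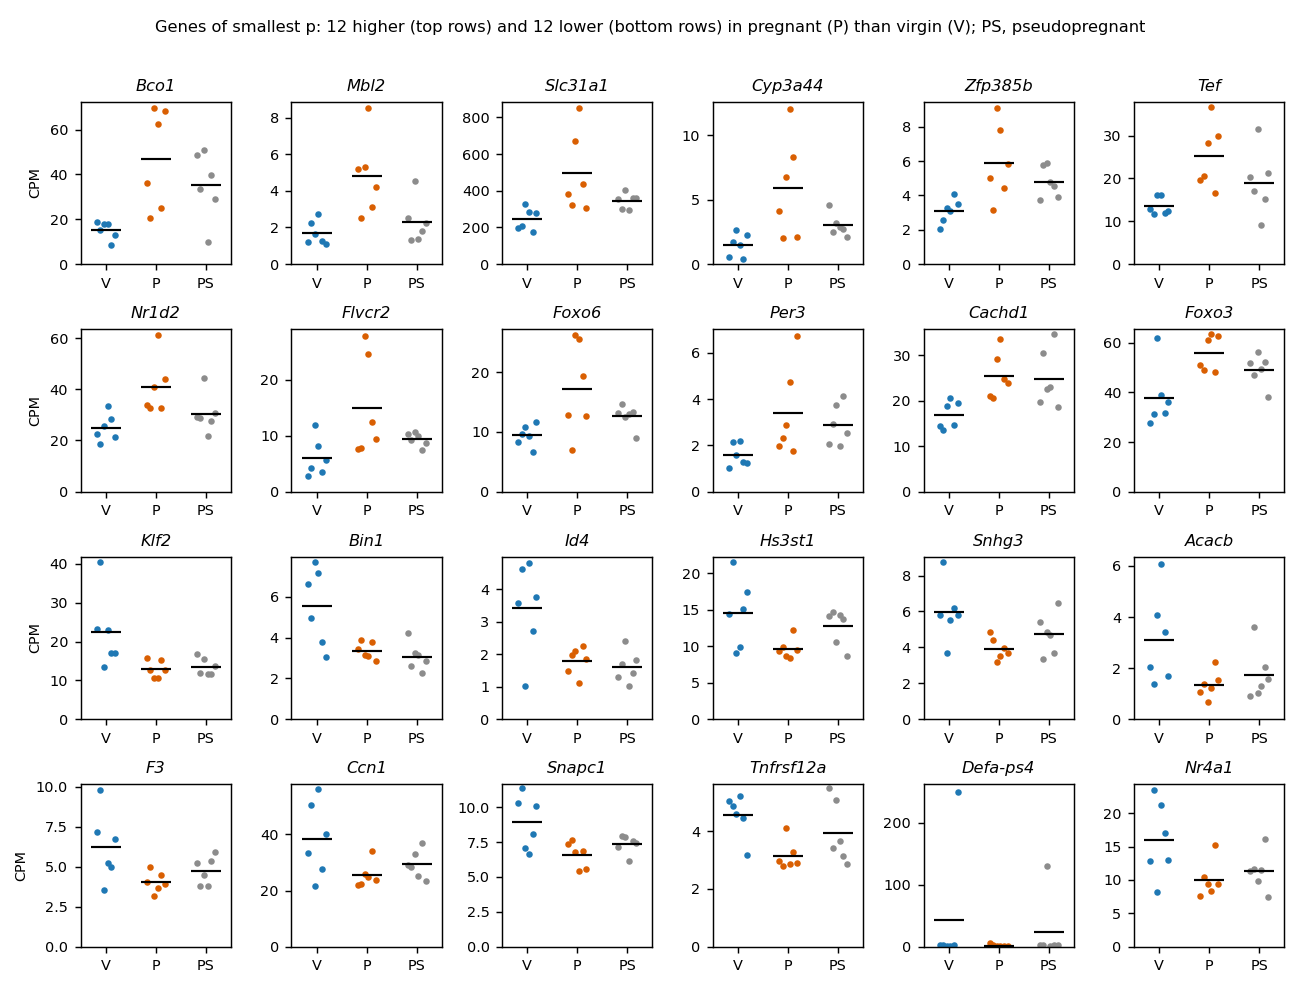
CPM of the 12 higher and 12 lower genes of smallest p (vertical axes, linear, from 0) in each virgin (V, blue), pregnant (P, orange) and pseudopregnant (PS, grey) library, with the mean of each group as a bar. Bco1, Tef and Cachd1 show no overlap between V and P, Klf2 shows 1 high virgin library, and the single virgin point of Defa-ps4 lies at 249.7 CPM.

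Genes of absorption were mostly on the higher side in pregnant libraries, and none passed adjustment. Over all 14675 genes, 48.5% had a log2 fold change above 0 and 51.5% one below 0, and the median was -0.0076. At an unadjusted p under 0.05 in edgeR, 2.02% of all genes were higher and 1.66% lower. These values are the background for the counts that follow. Of 21 genes of the brush border, the enzyme-bearing surface of the enterocyte, 21 were above 0 with a median of 0.44, and 6 were at an unadjusted p under 0.05 on the higher side against 0 on the lower. Xpnpep2, an aminopeptidase that cleaves before proline, stood at 409 to 885 CPM (median 522) in pregnant and 333 to 547 CPM (median 378) in virgin libraries, at a log2 fold change of 0.61 (SE 0.20, 95% interval 0.19 to 1.04, unadjusted p = 0.00685). Enpep, the glutamyl aminopeptidase, stood at 1366 to 2446 CPM (median 1543) against 1017 to 1985 CPM (median 1187) (log2 fold change 0.43 (SE 0.19)). Dpp4, dipeptidyl peptidase 4, stood at 398 to 927 CPM (median 629.7) against 301 to 685 CPM (median 436) (log2 fold change 0.51 (SE 0.23)). All 3 overlapped between the groups, and in Xpnpep2 and Enpep virgin replicate 3 was the virgin library that reached into the pregnant range. With the villus-minus-crypt score in the model, which contains these genes, the list median was 0.14 with 18 of 21 above 0. Xpnpep2, Enpep and Dpp4 were then at 0.29, 0.23 and 0.21.

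Amino acid and peptide carriers showed the same side. Of 20 genes, 19 were above 0 with a median of 0.41, and 4 were at an unadjusted p under 0.05, all higher. Slc15a1, the proton-coupled importer of di- and tripeptides (PepT1), stood at 423 to 916 CPM (median 586) in pregnant and 327 to 651 CPM (median 376) in virgin libraries, at a log2 fold change of 0.55 (SE 0.22, 95% interval 0.089 to 1.01, unadjusted p = 0.0219). Slc3a1, the partner chain of the cystine and basic amino acid importer, was at 0.44 (SE 0.17), and Clcn5, an endosomal chloride transporter, at 0.41 (SE 0.16). With the villus-minus-crypt score in the model the list median was 0.17 with 19 of 20 above 0, and Slc15a1 was at 0.20.

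Sugar carriers were less uniform. Of 18 genes of sugar transport and handling, 15 were above 0 with a median of 0.31, and 1 was at an unadjusted p under 0.05. That gene was Slc5a4a, of the sodium-glucose carrier family (ENSMUSG00000020229, chromosome 10, 76147451 to 76189265, plus strand), at 84.4 to 235 CPM (median 121) in pregnant and 37.6 to 129 CPM (median 54.5) in virgin libraries. In all 6 pregnant libraries it was above the virgin median and in 3 above the whole virgin range, whose top was virgin replicate 3. Its log2 fold change was 1.18 (SE 0.36, 95% interval 0.43 to 1.94, unadjusted p = 0.00386), 1 to 1.5 when 1 library was left out and 0.73 with the villus-minus-crypt score. Slc5a4b, the adjacent paralog with which it may share reads, was at 0.38 (95% interval -0.40 to 1.17), and -0.0038 with the score. Slc5a1, the main glucose importer SGLT1, stood at 983 to 1905 CPM (median 1655) against 899.7 to 1815 CPM (median 1162), a log2 fold change of 0.28 (95% interval -0.15 to 0.71). The fructose carrier Slc2a5 was at 0.50 (95% interval -0.013 to 1.01) and the basolateral glucose exit carrier Slc2a2 at 0.44 (95% interval -0.37 to 1.26). With the score the list median was 0.03 with 10 of 18 above 0.

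Fat and sterol handling stood closer to the background. Of 23 tested genes of fat uptake and chylomicron assembly 18 were above 0 with a median of 0.14, none was at an unadjusted p under 0.05 in edgeR, and with the villus-minus-crypt score the median was -0.08 with 7 of 23 above 0. The villus gene Apoa4, an apolipoprotein of chylomicrons, stood at 1403 to 3894 CPM (median 2513) and 835 to 6650.0 CPM (median 2526), with the pregnant range inside the virgin one. Cholesterol absorption and synthesis had 12 of 24 genes above 0 and a median of 0.00. Its 2 genes at an unadjusted p under 0.05 were both of uptake: Npc1l1, the sterol importer of the brush border, at 667 to 1393 CPM (median 1033) against 471 to 1291 CPM (median 676) (log2 fold change 0.50 (SE 0.22, 95% interval 0.039 to 0.97, unadjusted p = 0.0352)), and the lipoprotein and carotenoid receptor Scarb1 at 0.706 to 2.8 CPM (median 0.997) against 0.316 to 0.999 CPM (median 0.690) (log2 fold change 0.92 (SE 0.37)). Scarb1 was at 0.54 without pregnant replicate 6. Of 12 genes of ileal bile acid handling 8 were above 0, with a median of 0.11. Fgf15, the hormone that reports bile acid uptake to the liver, stood at 36 to 173 CPM (median 70.2) against 13.7 to 79.1 CPM (median 43.4), at 0.94 (95% interval -0.10 to 1.99), and the apical exporter Abcc2 was at 0.58 (95% interval -0.08 to 1.24), while Fabp6 overlapped fully as given above.

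Vitamin carriers shared this side. Of 14 tested genes 12 were above 0, the median was 0.30, and 6 were at an unadjusted p under 0.05, all higher. Cubn, the ileal receptor for vitamin B12 bound to intrinsic factor (ENSMUSG00000026726, chromosome 2, 13276338 to 13491813, minus strand), stood at 239.8 to 879 CPM (median 596) in pregnant and 148 to 437 CPM (median 232) in virgin libraries. Each of the 6 pregnant libraries exceeded the virgin median, and replicates 3, 4 and 6 exceeded every virgin library. The log2 fold change was 1.17 (SE 0.38, 95% interval 0.38 to 1.97, unadjusted p = 0.00586), 1.01 to 1.4 when 1 library was left out and 0.74 with the villus-minus-crypt score. Tcn2, transcobalamin, which carries B12 onward into blood, was at 0.35 (SE 0.15). The riboflavin carriers Slc52a2 and Slc52a3 were at 0.53 (SE 0.20) and 0.48 (SE 0.20), the folate carrier Slc46a1 at 0.42 (SE 0.18) and the thiamine carrier Slc19a2 at 0.29 (SE 0.13). All of these overlapped between the groups. The list median was 0.19 without pregnant replicate 4 and 0.17, with 12 of 14 above 0, with the score in the model.

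Metals were led by copper and iron carriers. Of 20 genes of iron, copper and zinc handling 17 were above 0 with a median of 0.20, and 4 were at an unadjusted p under 0.05, all higher. The 4 included Slc46a1, named above among the vitamin carriers, so the counts of these lists are not independent. With the villus-minus-crypt score in the model the list median was 0.11 with 14 of 20 above 0. Slc31a1, the copper importer CTR1 (ENSMUSG00000066150, chromosome 4, 62360727 to 62391769, plus strand), stood at 305 to 852 CPM (median 409.6) in pregnant and 172 to 327 CPM (median 243) in virgin libraries. It was above the virgin range in 4 of 6 pregnant libraries, with replicates 4 and 3 far above at 852 and 671 CPM. Its log2 fold change was 1.01 (SE 0.23, 95% interval 0.53 to 1.49, unadjusted p = 0.000286), 0.79 without pregnant replicate 4 and 0.75 with the villus-minus-crypt score. Slc40a1 or ferroportin, the iron exporter, stood at 18.1 to 74.7 CPM (median 36.5) against 13.1 to 35.4 CPM (median 18.7) (log2 fold change 0.87 (SE 0.36)), and Heph, the copper-dependent ferroxidase that works with it, at 190.2 to 325 CPM (median 242) against 121 to 293 CPM (median 185) (log2 fold change 0.42 (SE 0.18)). The metallothionein Mt2, which binds zinc and copper, lay on the other side at 7.8 to 112 CPM (median 36.5) against 16.6 to 141 CPM (median 118), with all 6 pregnant libraries below the virgin median and a log2 fold change of -1.03 (95% interval -2.24 to 0.18). Virgin replicate 1, at 16.6 CPM, was the exception among the virgin libraries.

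Of 12 tested genes of carotenoid and retinoid metabolism 9 were above 0 with a median of 0.16, and Bco1 and Scarb1 were the 2 at an unadjusted p under 0.05. Dhrs3, which turns retinal back to retinol, was at 0.37 (95% interval -0.013 to 0.75). With the villus-minus-crypt score 7 of 12 were above 0 with a median of 0.02. Calcium and phosphate transport had 8 of 11 tested genes above 0 and a median of 0.11, with none at an unadjusted p under 0.05. The calcium channel Trpv6 had 0 counts in all 12 libraries, and the calcium-binding protein S100g stood at 3.05 to 7.7 CPM (median 5.29) against 2.36 to 15.2 CPM (median 5.47), a log2 fold change of -0.33 (95% interval -1.14 to 0.49). The phosphate importer Slc34a2 stood at 544 to 1260.2 CPM (median 673) against 296 to 1099.5 CPM (median 442), at 0.53 (95% interval -0.057 to 1.12). Of 21 ion and water transport genes 14 were above 0, and the bicarbonate cotransporter Slc4a4 (0.39 (SE 0.18)) was the 1 at an unadjusted p under 0.05.

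**Figure D3:**
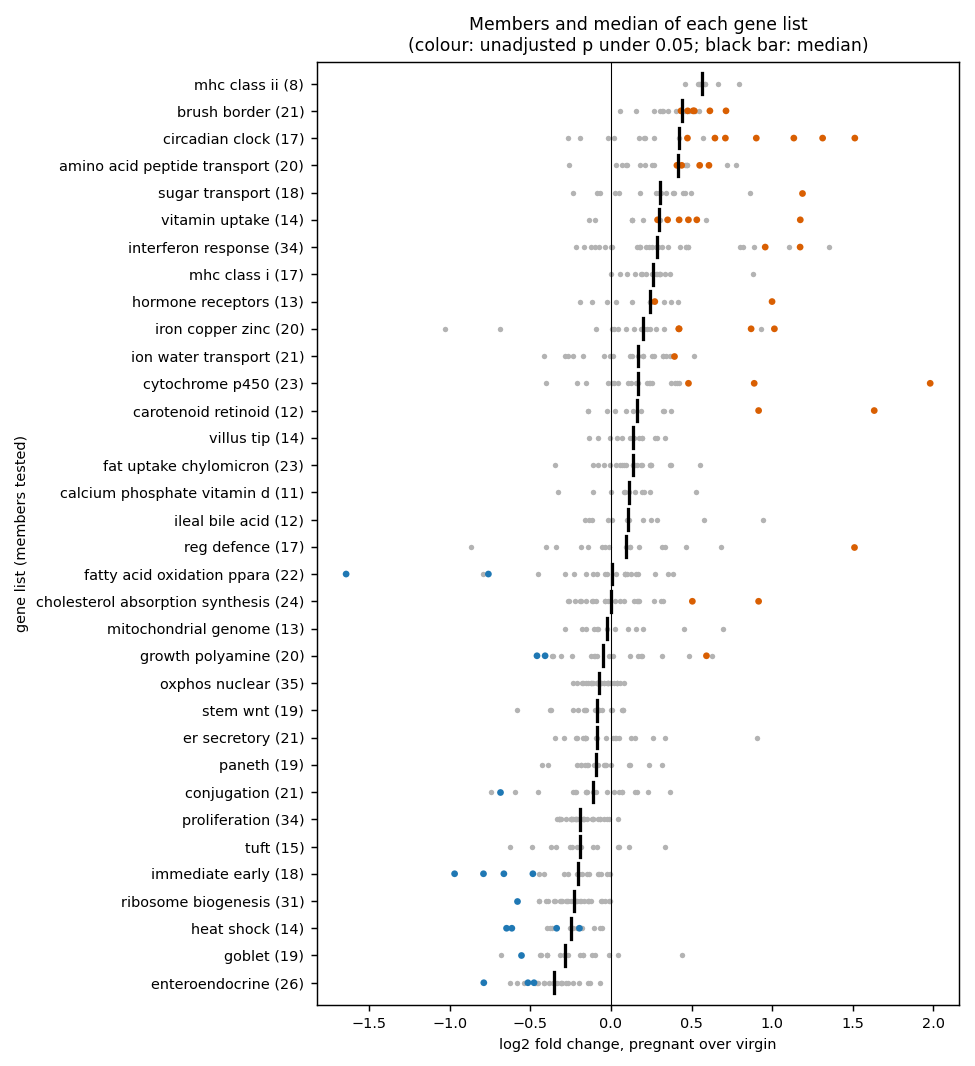
Log2 fold changes of pregnant over virgin libraries (horizontal axis) of the members of each of 34 gene lists (rows, with the number of members tested), with coloured points at an unadjusted p under 0.05, orange for higher and blue for lower, and a black bar at the list median. Medians run from 0.57 for MHC class II, where no single gene is coloured, to -0.36 for the enteroendocrine list.

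The circadian clock list held 7 of 17 tested genes at the unadjusted threshold, all higher in pregnant libraries, beside 2.02% higher over all genes. This was the highest count of the 34 lists of function or cell type, though the vitamin list, with 6 of 14, had the higher share. The lists were chosen with earlier results of these data known, so this rank is a description and not a test. The molecular clock turns on a loop in which CLOCK and BMAL1 (Arntl) drive the Per, Cry and Rev-erb genes, whose products act back on the drivers, and the PAR bZIP factors Dbp, Tef and Hlf relay the rhythm to output genes. In this loop the output factors Dbp, Tef and Hlf and the repressors Nr1d1, Nr1d2, Per3 and Cry2 were the 7. The hour of collection, on which these genes are known to depend, is not in the labels, and its part in these values was not tested.

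Among the output factors, Dbp stood at 5.03 to 24.4 CPM (median 11.8) in pregnant and 2.98 to 6.87 CPM (median 3.81) in virgin libraries (ENSMUSG00000059824, chromosome 7, 45705088 to 45710203, plus strand). Pregnant replicates 4, 6, 3 and 1 lay above every virgin library, and replicates 2 and 5 lay inside the virgin range. The log2 fold change was 1.51 (SE 0.44, 95% interval 0.58 to 2.44, unadjusted p = 0.00292). Tef separated the groups without overlap, at 16.6 to 36.6 CPM (median 24.4) against 11.7 to 16.2 CPM (median 12.6) (ENSMUSG00000022389, chromosome 15, 81802421 to 81826863, plus strand), a log2 fold change of 0.90 (SE 0.23, 95% interval 0.41 to 1.39, unadjusted p = 0.00107). Hlf was nearly silent, at 0.423 to 3.39 CPM (median 0.685) against 0.258 to 0.646 CPM (median 0.485), and its log2 fold change of 1.31 (SE 0.46) was 0.57 without pregnant replicate 6, which held 3.39 CPM.

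Of the repressors, Nr1d2 or Rev-erb beta stood at 32.7 to 61.3 CPM (median 37.3) against 18.6 to 33.5 CPM (median 24) (ENSMUSG00000021775, chromosome 14, 18204054 to 18239127, minus strand), at 0.71 (SE 0.19, 95% interval 0.32 to 1.1, unadjusted p = 0.00109), with 4 of 6 pregnant libraries above the virgin range. Nr1d1 or Rev-erb alpha stood at 65.6 to 122 CPM (median 95) against 45.4 to 76.3 CPM (median 60.5), at 0.65 (SE 0.21), with pregnant replicates 3, 4 and 6 above the virgin range and the other 3 inside it. Per3 stood at 1.75 to 6.74 CPM (median 2.61) against 1.01 to 2.19 CPM (median 1.43), at 1.13 (SE 0.32, 95% interval 0.47 to 1.8, unadjusted p = 0.00213), and 0.82 without pregnant replicate 6. Cry2 was at 0.47 (SE 0.21). The activator Arntl and the repressor Per1 were below 0. Arntl stood at 20.9 to 30.1 CPM (median 24.8) against 20.5 to 34.8 CPM (median 28.2), a log2 fold change of -0.19 (95% interval -0.51 to 0.12), with 5 of 6 pregnant libraries below the virgin median. Per1 was at -0.27 (95% interval -0.82 to 0.28), and Per2 at 0.57 (95% interval -0.054 to 1.2).

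Of the 17 clock genes 14 were above 0, with a median of 0.42. This median was 0.31 to 0.47 when 1 library was left out, and 0.24 with 13 of 17 above 0 when the villus-minus-crypt score was in the model. By library, the mean deviation of the list was 0.59 in pregnant replicate 6, 0.42 in replicate 4 and 0.31 in replicate 3, -0.03 to -0.16 in the other 3 pregnant libraries, and -0.40 to -0.10 in the virgin libraries. The 3 highest are the 3 pregnant libraries of highest villus-minus-crypt score. Virgin replicate 3, whose score of 1.12 lies within their range, had -0.10 for the clock list, the highest value of the virgin libraries. The part of the balance of villus and crypt in the clock values was not tested.

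RefSeq promoter windows of GRCm38.p6, from 250 bases before to 50 after each annotated start, were found for 16 of the 19 clock genes of the list, 21 windows in all. They were searched on both strands for the palindromic E-box CACGTG, the word that CLOCK and BMAL1 are known to bind, and the D-box TTATGTAA or TTATGCAA, the word of the PAR bZIP factors, words that cannot be the same site. The E-box was in 6 clock windows of 5 genes (Bhlhe41, Ciart, Cry1, Per1 and Tef) and in 7.15% of all 32851 windows, and the D-box was in 2 clock windows (Per1 and Per3) and in 1.66% of all. Shown are the windows of the 2 genes that carry a word and are among the 7 at the unadjusted threshold, 5′ to 3′ in the direction of transcription, with the word in capitals. In Tef, chr15:81802423-81802722 (plus strand) has its E-box 127 bases before the start and chr15:81811164-81811463 (plus strand) 138 bases before it. In Per3, chr4:151044616-151044915 (minus strand) has D-boxes 205 and 158 bases before the start.
Tef, first start: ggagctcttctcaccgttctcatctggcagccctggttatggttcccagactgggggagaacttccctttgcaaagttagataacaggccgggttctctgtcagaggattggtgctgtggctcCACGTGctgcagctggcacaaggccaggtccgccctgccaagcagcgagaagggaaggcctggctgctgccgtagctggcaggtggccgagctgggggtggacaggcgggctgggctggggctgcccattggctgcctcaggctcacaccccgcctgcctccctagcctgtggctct
Tef, second start: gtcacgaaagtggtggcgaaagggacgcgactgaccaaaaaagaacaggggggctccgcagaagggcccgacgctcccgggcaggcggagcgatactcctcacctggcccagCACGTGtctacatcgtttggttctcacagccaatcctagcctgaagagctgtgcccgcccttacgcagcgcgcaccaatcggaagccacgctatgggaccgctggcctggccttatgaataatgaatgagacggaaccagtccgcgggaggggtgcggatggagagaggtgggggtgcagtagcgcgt
Per3: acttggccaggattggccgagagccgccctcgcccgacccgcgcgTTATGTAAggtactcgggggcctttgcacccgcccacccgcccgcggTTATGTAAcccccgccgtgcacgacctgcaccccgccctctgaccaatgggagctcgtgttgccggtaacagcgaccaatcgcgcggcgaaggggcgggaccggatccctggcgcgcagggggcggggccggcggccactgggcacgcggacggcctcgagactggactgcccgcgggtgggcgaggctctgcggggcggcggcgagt
The windows of Dbp, Nr1d1, Nr1d2, Hlf and Cry2 hold neither word, and Cry1 and Per1 hold an E-box.

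**Figure D4:**
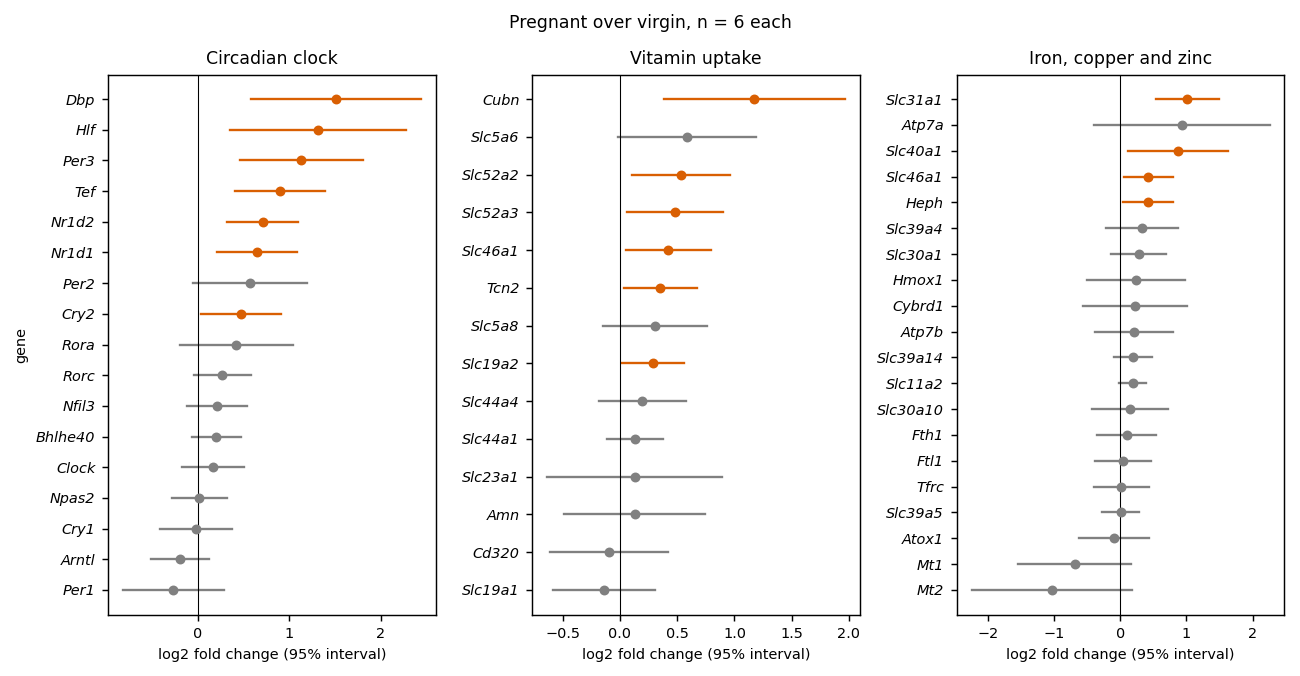
Log2 fold change of pregnant over virgin libraries (horizontal axis, n = 6 each) with its unadjusted 95% interval for each tested gene of the clock, vitamin uptake and metal lists, orange where the unadjusted p is under 0.05. The clock output factors and Rev-erb genes stand at the top and Arntl and Per1 at the bottom of the clock panel, Cubn and Slc31a1 lead the other panels, and Mt2 lies at -1.03 with an interval across 0.

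Receptors for the hormones of pregnancy were measured next. Prlr, the receptor for prolactin and placental lactogens, stood at 125 to 189 CPM (median 169) in pregnant and 113 to 169 CPM (median 133) in virgin libraries. Its log2 fold change was 0.27 (SE 0.12, 95% interval 0.011 to 0.53, unadjusted p = 0.0418), and 0.14 with the villus-minus-crypt score. Esr1, the estrogen receptor alpha, stood at 0.413 to 1.18 CPM (median 0.600) against 0.174 to 0.514 CPM (median 0.333), with all 6 pregnant libraries above the virgin median and 3 above the virgin range, at 1 (SE 0.41, 95% interval 0.15 to 1.85, unadjusted p = 0.0241). The progesterone receptor Pgr overlapped between the groups, at 0.139 to 0.394 CPM (median 0.243) against 0.0693 to 0.580 CPM (median 0.211). Nr3c2, the mineralocorticoid receptor, was at 0.37 (95% interval -0.0049 to 0.75). Of 18 listed hormone receptors 13 passed the filter on low counts, 10 of those were above 0, the median was 0.24, and Esr1 and Prlr were the 2 at an unadjusted p under 0.05.

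Growth signals were on both sides of 0. Of 20 tested genes of growth factor signalling and polyamine synthesis 9 were above 0 and the median was -0.05, and 0.02 without virgin replicate 2. Irs2, the insulin receptor substrate, stood at 22.9 to 47.6 CPM (median 32.4) against 10.4 to 38.1 CPM (median 19.3), at 0.59 (SE 0.28, 95% interval 0.0043 to 1.18, unadjusted p = 0.0485). The epidermal growth factor receptor ligands Hbegf and Areg lay the other way. Hbegf stood at 101 to 146 CPM (median 113) against 117 to 226 CPM (median 143) (log2 fold change -0.41 (SE 0.16), and -0.28 without virgin replicate 2) and Areg at 16 to 35.5 CPM (median 19.8) against 24.8 to 47.8 CPM (median 25.8) (log2 fold change -0.46 (SE 0.22), and -0.27 without virgin replicate 2). In Areg 5 of 6 pregnant libraries lay below every virgin library.

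Crypt genes lay near or below 0. The stem cell marker Lgr5 stood at 2.67 to 9.35 CPM (median 5.64) against 2.08 to 7.36 CPM (median 5.38), a log2 fold change of 0.076 (95% interval -0.67 to 0.82), and Olfm4 at 93 to 257 CPM (median 186) against 29.1 to 289.9 CPM (median 193), at 0.077 (95% interval -0.85 to 1.01). Ascl2, a transcription factor of these stem cells, was at -0.58 (95% interval -1.26 to 0.10), with 6 of 6 pregnant libraries below the virgin median. Of 19 tested stem cell and Wnt genes 5 were above 0, with a median of -0.08, and with the villus-minus-crypt score this turned to 0.23 with 17 of 19 above 0. Lgr5 was then at 0.51, Olfm4 at 0.45 and Ascl2 at -0.088. Of 34 proliferation genes 1 was above 0, with a median of -0.19, and 0 were at an unadjusted p under 0.05 in edgeR. Mki67, the marker of cycling cells, was at -0.022 (95% interval -0.66 to 0.62), and Pcna, the replication clamp, at -0.25 (95% interval -0.59 to 0.092). The proliferation median was -0.09 without pregnant replicate 3 and -0.32 without virgin replicate 3, the libraries of highest villus-minus-crypt score in each group. With the score, which contains these genes, it was 0.13 with 31 of 34 above 0. Of 31 genes of ribosome biogenesis 0 were above 0 and the median was -0.23, with Gar1, a protein of box H/ACA nucleolar particles, at -0.58 (SE 0.26) as the 1 at an unadjusted p under 0.05. With the score in the model that median was 0.03, with 23 of 31 above 0.

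The medians of the 4 secretory lineage lists lay below 0, and those of Paneth and tuft cells turned with the villus-minus-crypt score. All 26 tested enteroendocrine genes were below 0, with a median of -0.36, and 3 were at an unadjusted p under 0.05. They were Rfx6, a transcription factor of hormone cells, at 0.392 to 1.17 CPM (median 0.499) against 0.811 to 1.51 CPM (median 0.975) (log2 fold change -0.79 (SE 0.31, 95% interval -1.43 to -0.15, unadjusted p = 0.0189)), the granule protein Chgb at 46.8 to 63.4 CPM (median 58.7) against 52.4 to 148 CPM (median 66.7) (log2 fold change -0.48 (SE 0.22)) and Gcg, the precursor of GLP-1 and GLP-2, at 27.2 to 63.5 CPM (median 27.7) against 26.1 to 68.8 CPM (median 52.3) (log2 fold change -0.52 (SE 0.24)). In Rfx6, 5 of 6 pregnant libraries lay below every virgin library and pregnant replicate 6 was the exception. These values moved with virgin replicate 4. Without it the list median was -0.16 and Chgb was at -0.19, and the mean deviation of the list in that library was 0.94 against -0.24 to 0.29 in the other 5 virgin libraries. With the score the median was -0.34, with 1 of 26 above 0.

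Of 19 tested goblet cell genes 2 were above 0, with a median of -0.29, and -0.16 without virgin replicate 4 and -0.21 with the villus-minus-crypt score. Agr2, needed for mucin folding, stood at 199 to 342 CPM (median 262) against 159 to 549 CPM (median 412), at -0.56 (SE 0.23, 95% interval -1.04 to -0.074, unadjusted p = 0.0259), with all 6 pregnant libraries below the virgin median. Zg16, a lectin of the mucus, was at -0.68 (95% interval -1.4 to 0.03), and -0.38 without virgin replicate 4. Of 19 Paneth cell genes 4 were above 0, and the median of -0.09 ran from -0.35 without pregnant replicate 1 to 0.18 without virgin replicate 2. It was 0.44 with 18 of 19 above 0 with the score, and 0.12 with 13 of 19 above 0 with the length slope, the trend of a library's deviations with transcript length, as covariate. Of 15 tested tuft cell genes 4 were above 0, with a median of -0.20, which was 0.09 with 10 of 15 above 0 with the score and 0.06 without virgin replicate 6. Single tuft cell genes were the prostaglandin synthase Ptgs1 at -0.63 (95% interval -1.39 to 0.13) and the interleukin 25 receptor chain Il17rb at 0.33 (95% interval -0.051 to 0.72).

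**Figure D5:**
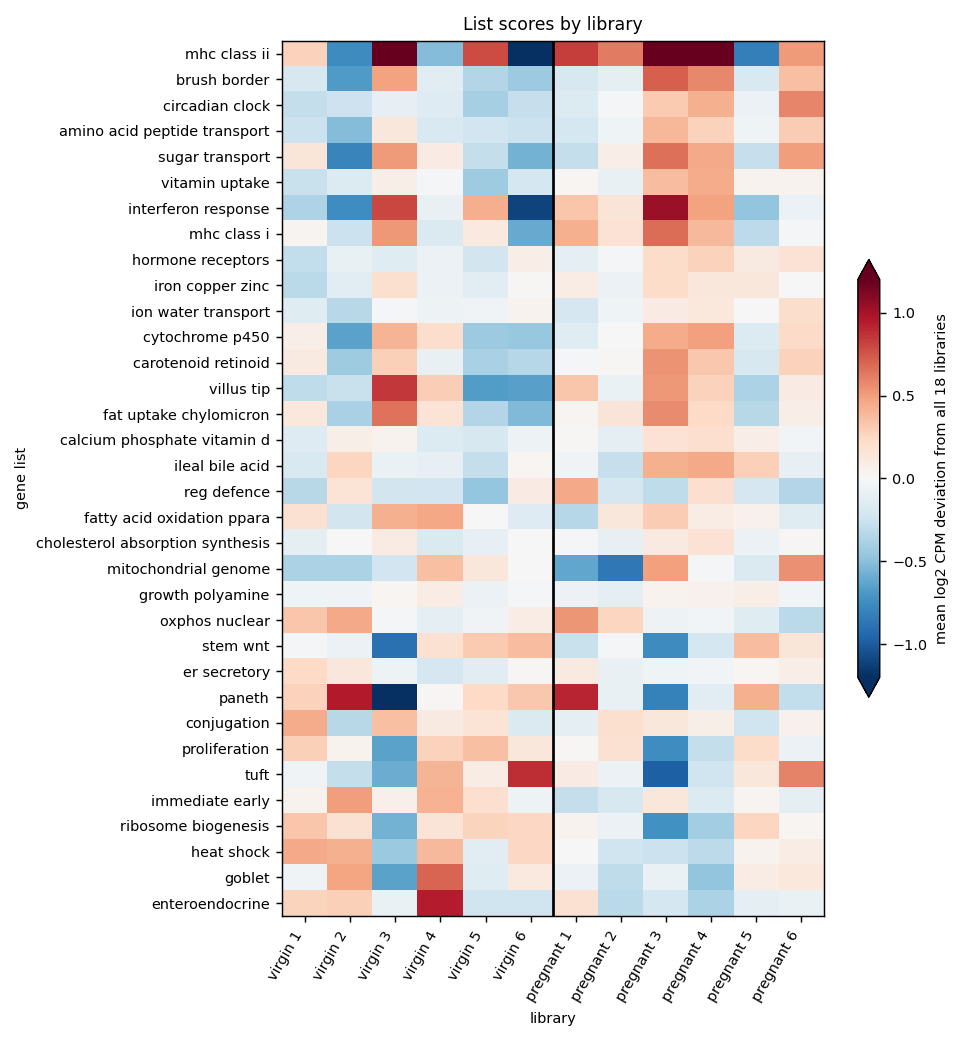
Mean log2 CPM deviation of each gene list (rows) from the mean of all 18 libraries, in each virgin (left) and pregnant (right) library, as a colour from blue (lower) to red (higher). Virgin 3 shares its pattern with pregnant 3 and 4 in most absorptive and crypt rows. The clock, hormone receptor and ion and water transport rows are among those where virgin 3 departs from them. Virgin 4 is the library of highest enteroendocrine and goblet values.

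Antigen presentation genes were above 0 as a block with no gene at the unadjusted threshold. All 8 genes of MHC class II were above 0, with a median of 0.57, and 0 were at an unadjusted p under 0.05 in edgeR. Ciita, the master activator of this set, stood at 5.45 to 39.5 CPM (median 22.4) in pregnant and 1.31 to 34.2 CPM (median 7.48) in virgin libraries, a log2 fold change of 0.79 (95% interval -0.50 to 2.09). Its target Cd74 stood at 542 to 2227 CPM (median 1618) against 115 to 2190.5 CPM (median 934), at 0.58 (95% interval -0.59 to 1.76). Both groups spanned a wide range, and the list median was 0.34 without virgin replicate 6, the lowest library, and 0.94 without virgin replicate 3, the highest virgin library. It was 0.18, with 8 of 8 above 0, with the villus-minus-crypt score. All 17 MHC class I and processing genes were also above 0, with a median of 0.26 and none at an unadjusted p under 0.05. H2-T3, the thymus leukemia antigen of enterocytes, was at 0.31 (95% interval -0.0056 to 0.62). With the villus-minus-crypt score the class I median was 0.02 with 10 of 17 above 0.

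Of 34 tested interferon response genes 27 were above 0, with a median of 0.29, and 2 were at an unadjusted p under 0.05. Gbp6, an interferon-induced GTPase, stood at 8.52 to 48.3 CPM (median 14.2) against 2.63 to 22 CPM (median 6.05), at 1.17 (SE 0.51, 95% interval 0.11 to 2.23, unadjusted p = 0.0320), and 0.72 without pregnant replicate 3. Gbp9 was at 0.96 (SE 0.42) and Gbp8 at 1.35 (95% interval -0.059 to 2.76), and these neighbouring paralogs on chromosome 5 overlap in the annotation and may share reads. With the score in the model the list median was 0.03. Of 17 tested genes of epithelial defence 9 were above 0 and the median was 0.09 (-0.11 without pregnant replicate 1), with Mbl2 the 1 at an unadjusted p under 0.05. The antimicrobial lectin Reg3a was at -0.34 (95% interval -0.79 to 0.10).

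Early response and heat shock genes tested were all below 0. Medians with the villus-minus-crypt score were -0.24 and -0.13, with 1 of 18 and 4 of 14 above 0. Of 18 tested immediate early genes 0 were above 0, the median was -0.20, and 4 were at an unadjusted p under 0.05, all lower. Beside Klf2, the AP-1 subunit Fosl1 stood at 0.282 to 0.998 CPM (median 0.465) against 0.701 to 1.42 CPM (median 1.04) (log2 fold change -0.97 (SE 0.34, 95% interval -1.67 to -0.27, unadjusted p = 0.00925)), the nuclear receptor Nr4a1 at 7.61 to 15.2 CPM (median 9.33) against 8.15 to 23.5 CPM (median 15) (log2 fold change -0.66 (SE 0.23)) and Egr2 at 7.02 to 10.3 CPM (median 8.55) against 7.62 to 16.2 CPM (median 11.6) (log2 fold change -0.48 (SE 0.20)). Of 14 heat shock genes 0 were above 0, with a median of -0.25 and 4 at an unadjusted p under 0.05. The inducible Hsp70 genes Hspa1a and Hspa1b, near-identical copies that may share reads, stood at 132 to 381 CPM (median 233) against 128 to 647 CPM (median 410.3) and at 167 to 426 CPM (median 285) against 163 to 742 CPM (median 477), with log2 fold changes of -0.65 (SE 0.30) and -0.61 (SE 0.28). Their partners Dnajb1 and Bag3 were at -0.34 (SE 0.15) and -0.20 (SE 0.091).

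The lists of energy metabolism had medians near 0. Of 35 nuclear genes of oxidative phosphorylation 7 were above 0 with a median of -0.07, which was -0.23 without pregnant replicate 1 and turned to 0.07, with 29 of 35 above 0, with the length slope as covariate. The 13 genes of the mitochondrial genome had 6 above 0 with a median of -0.02, which ran from -0.15 without pregnant replicate 3 to 0.13 without pregnant replicate 2. Of 22 tested genes of fatty acid oxidation 11 were above 0 with a median of 0.00 (-0.15 with the villus-minus-crypt score), and 2 were at an unadjusted p under 0.05, both lower. Acot1, an acyl-CoA thioesterase with close paralogs, stood at 1.92 to 5.45 CPM (median 2.81) against 3.39 to 11.6 CPM (median 5.17) (log2 fold change -0.76 (SE 0.31)), and was at -0.43 without virgin replicate 4. That library was also the highest virgin library for Acacb.

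Of 23 tested cytochrome P450 genes 19 were above 0, with a median of 0.17, and 3 were at an unadjusted p under 0.05, all higher. Besides Cyp3a44 they were the fatty acid hydroxylase Cyp2u1 at 26.8 to 50.4 CPM (median 35.9) against 22.7 to 34 CPM (median 25.8) (log2 fold change 0.48 (SE 0.17, 95% interval 0.13 to 0.83, unadjusted p = 0.00959)) and Cyp1a1, induced through the aryl hydrocarbon receptor, at 0.395 to 1.63 CPM (median 0.870) against 0.355 to 0.797 CPM (median 0.508) (log2 fold change 0.89 (SE 0.37)). With the villus-minus-crypt score 13 of 23 were above 0 and the median was 0.02. Of 21 tested conjugation enzymes 8 were above 0 with a median of -0.11, and the glutathione transferase Gsta4 was the 1 at an unadjusted p under 0.05, at 22.6 to 33.5 CPM (median 24.5) against 27.3 to 56.9 CPM (median 40.2) (log2 fold change -0.69 (SE 0.25, 95% interval -1.22 to -0.16, unadjusted p = 0.0140)), with 5 of 6 pregnant libraries below every virgin library.

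Pregnant and pseudopregnant libraries were compared directly in the same model, to ask which of the named genes stood apart from a hormonal state without embryos. Of 14675 genes 0 (0%) passed an adjusted p of 0.05 in edgeR, and 345 (2.35%) had an unadjusted p under 0.05. For several of the genes described above, the interval of pregnant over pseudopregnant included 0. Gm42427 was at 15.4 to 56.3 CPM (median 42.5) in pseudopregnant libraries, and its log2 fold change of pregnant over pseudopregnant was 0.20 (95% interval -0.35 to 0.74). For Cachd1 it was 0.041 (95% interval -0.31 to 0.39), for Klf2 -0.069 (95% interval -0.51 to 0.37), for Cubn 0.12 (95% interval -0.67 to 0.90), for Slc40a1 0.073 (95% interval -0.67 to 0.82) and for Prlr -0.038 (95% interval -0.30 to 0.22). Bco1 was at 9.64 to 50.9 CPM (median 36.5) in pseudopregnant libraries, between the other groups, with 0.42 (95% interval -0.30 to 1.14).

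For other genes that interval excluded 0, without passing adjustment. Genes named for a small p against the virgin libraries were picked on these same pregnant libraries. That choice favours a difference from pseudopregnant libraries in the same direction. Mbl2 was at 1.31 to 4.54 CPM (median 2.01) in pseudopregnant libraries, with a log2 fold change of pregnant over pseudopregnant of 1.08 (95% interval 0.39 to 1.77) and an unadjusted p of 0.00384. For Esr1 it was 1.06 (95% interval 0.21 to 1.92), for Cyp3a44 0.98 (95% interval 0.075 to 1.89), for Slc5a4a 0.87 (95% interval 0.12 to 1.61), for Slc31a1 0.52 (95% interval 0.041 to 0.99), for Gbp6 1.35 (95% interval 0.28 to 2.42) and for Nr1d2 0.43 (95% interval 0.043 to 0.81). On the lower side it was -1.15 (95% interval -1.78 to -0.52) for Rfx6 (unadjusted p = 0.00109) and -0.68 (95% interval -1.32 to -0.034) for Mki67. Dbp and Tef were at 0.86 (95% interval -0.045 to 1.77) and 0.41 (95% interval -0.077 to 0.90), and Per3 at 0.24 (95% interval -0.40 to 0.89). The difference between pregnant and virgin and that between pseudopregnant and virgin share the virgin libraries, and no likeness between them is drawn here.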

How the data were processed

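Deposited values are raw counts of reads for 47729 Ensembl genes, a table for each library, with no normalization by the authors. Per the submitters' processing notes, the tools were HISAT2 (2.0.4) with FastQC (0.11.5) and featureCounts, with Subread (2.0.0) and DESeq2 (1.24.0) also named, on GRCm38. The sources used here do not give the counting's strand setting or annotation release, so reads of overlapping or antisense genes may be shared. Per the labels' protocols, the RNeasy Plus Micro kit gave the RNA, and poly(A)-enriched RNA went into NEBNext Ultra II Directional libraries. Symbols and positions came from GENCODE M21 for 47310 genes. Replicates of a group stood apart beyond sampling noise, with a chi-square of 44.6 to 416 per degree of freedom, and none was treated as a duplicate.

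Groups came from the titles. Genes passing edgeR's filterByExpr were scaled by TMM and fitted in edgeR 4.0.16 (R 4.3.3; quasi-likelihood, legacy = FALSE) with 1 mean per group over all 18 libraries, and the contrast of pregnant minus virgin had a two-sided test, with Benjamini-Hochberg adjusted p under 0.05 over all genes as the threshold. List scores are mean log2 CPM (prior count 2) deviations from the 18-library mean. Differences of library measures were tested over all 924 splits. The 43 gene lists (34 of function or cell type, 9 of markers) and the members were chosen with earlier results of these data known, and lists have no test.

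Named genes were those past adjustment, the 12 higher and 12 lower of smallest p with a mean of at least 2 CPM and no predicted symbol, those whose groups do not overlap, up to 3 of smallest p per list, and 20 fixed by name. Dbp, Hlf, Nr1d1, Cry2, Arntl, Per1, Per2, Tcn2, Slc19a2, Heph, Hspa1a, Egr2, Mt2 and Cd74 were named after their values were seen. Some genes of the lists are not reported here by name. Scripts were tested on simulated data. Alternatives were limma-voom (limma 3.58.1), DESeq2 1.42.0, its size factors, no low-count filter or at least 1 CPM in 6 libraries, only the 12 libraries, a replicate block, the villus-minus-crypt score or the transcript length slope as covariate, and each library left out. The older dispersion method and leaving out pregnant 3 with virgin 3 were chosen after seeing the data.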

Additional observations from a re-analysis of the deposited data

Results flagged for a closer look

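Of 214 groups of 6 libraries checked, 23 had 1 library past Dixon's 95% critical value. Dixon's ratio is the gap to the nearest other library divided by the range of the group. The critical value gives about 1 in 20 for independent groups of normal values. These groups hold unlogged CPM from the same 12 libraries, so 23 of 214 cannot be set against that rate. The values are CPM and no explanation is offered.

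Virgin replicate 3 stood highest of the virgin libraries in Foxo3 (61.9), Slc5a4a (128.9), Xpnpep2 (547), Enpep (1985), H2-T3 (250.4), Gbp8 (8.25) and Tcn2 (363). Virgin replicate 4 stood highest in Chgb (148) and Acot1 (11.6). Virgin replicate 2 stood highest in Klf2 (40.4), Areg (47.8) and Fabp6 (14268). Virgin replicate 6 stood highest in Defa-ps4 (249.7) and lowest in Tnfrsf12a (3.18), and virgin replicate 1 lowest in Mt2 (16.6).

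Among pregnant libraries, replicate 3 stood highest in Areg (35.5) and Tnfrsf12a (4.10), and replicate 5 in Ccn1 (34.0) and Gcg (63.5). Replicate 6 stood highest in Slc2a2 (225.6), Rfx6 (1.17) and Hlf (3.39), and replicate 1 in Gsta4 (33.5).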

How the results depend on the processing

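The count of genes past adjustment, 0 in edgeR, was 5 with DESeq2 and 1 (Gm42427, adjusted p = 0.0166) with the replicate block, and 0 in the other alternatives run. No label ties the replicate numbers to a batch or an animal, and the samples were treated as unpaired. Correlations of same-numbered libraries' deviations were 0.44, 0.16, 0.84, 0.18, 0.25 and 0.012, and 2 of 6 virgin libraries correlated best with their own number. These correlations cannot tell whether same-numbered libraries share a batch or a round of collection. Of the unadjusted count of 540, the alternatives gave 989 with no filter, 979 with the replicate block, 250 with the villus-minus-crypt score, 1074 without pregnant 3 and virgin 3, and 223 to 1953 when 1 library was left out. The other counts were within 1.5 times. Higher genes made up 54.8% of the 540, and 47.4% (without virgin replicate 5) to 64.5% (only the 12 libraries) in the alternatives, with 60.8% with size factors and 47.6% with the villus-minus-crypt score.

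Of 102 genes, 96 stayed on 1 side of 0 in all alternatives. With the villus-minus-crypt score, Slc5a4b was at -0.0038 and Mki67 at 0.31. With the length slope, Lgr5 was at -0.076, Olfm4 at -0.14 and S100g at 0.032. When 1 library was left out, Slc2a2 ran from -0.0014 to 0.64, S100g from -0.50 to 0.12, Lgr5 from -0.14 to 0.22, Olfm4 from -0.15 to 0.29 and Mki67 from -0.22 to 0.095. The causes were not tested. Of 874 list medians under alternatives, 4 moved by more than the spread of the list's score within groups. Depth limits Cpvl, Hlf, Esr1, Pgr, Fosl1, Rfx6, Gbp9, Scarb1, Cyp1a1, Aifm3 and Ptgs1, which lie near or under 1 CPM in most libraries.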
